A study of Mus musculus with 2 samples.

Results

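Foxp3 and the Ikaros family of zinc finger factors (Ikzf1, Ikzf2, Ikzf3, Ikzf4 and Ikzf5) were followed across the lymphocytes of colorectal tumours from mice on different diets. They were chosen by name with their levels in these cells already known, and are 6 of the 30905 genes in the files. Transcripts were counted in single CD45+ leukocytes, sorted from male C57BL/6 mice, with a droplet method that reads the 3′ end (10x Genomics, V3). The FMD group was given a fasting-mimicking diet and the ad libitum group fed freely, each from DSS cycle 2 on. Both groups had received azoxymethane (AOM, a colon carcinogen) at 12 mg/kg and 3 cycles of 2.5% dextran sodium sulfate (DSS, a colitis-inducing agent), each of 7 days with DSS and 14 days without. The titles call the tissue tumour, although the extraction text also names normal colon. A library pooled 4 mice and each diet had 1 library. Differences between diets or classes could therefore not be tested over mice, and every interval given is an exact 95% interval that covers counting error only.

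Foxp3 is the forkhead factor that defines regulatory T cells, which restrain other lymphocytes, and mice without it die of autoimmunity. Ikaros factors bind DNA through one group of zinc fingers and pair with each other through another, and they can silence genes by bringing in the chromatin remodelling complex NuRD. Ikzf1 (Ikaros) is needed for lymphocyte development, and Ikzf3 (Aiolos) acts in mature B cells and in some effector T cells. Ikzf2 (Helios) marks many regulatory T cells that arise in the thymus, while colon regulatory T cells that depend on gut microbes often lack it. Ikzf4 (Eos) is a partner of Foxp3 in gene silencing, and Ikzf5 (Pegasus) is a distant relative within the family.

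In the gene models of GENCODE M21 on GRCm38, Foxp3 lay on the plus strand at chrX:7573644-7595245 and Ikzf1 on the plus strand at chr11:11685003-11772926. The others lay on minus strands, Ikzf2 at chr1:69531214-69687245, Ikzf3 at chr11:98464902-98546031, Ikzf4 at chr10:128630843-128645991 and Ikzf5 at chr7:131388652-131410521. Their Ensembl identifiers were ENSMUSG00000039521 (Foxp3), ENSMUSG00000018654 (Ikzf1), ENSMUSG00000025997 (Ikzf2), ENSMUSG00000018168 (Ikzf3), ENSMUSG00000002578 (Ikzf4) and ENSMUSG00000040167 (Ikzf5). Promoters of 3 of the 6 genes were matched by symbol in RefSeq on GRCm38.p6, and those of Ikzf2, Ikzf3 and Ikzf4 were not. The 250 bases before a start site are shown for a gene restricted to few classes (Foxp3) and for genes found in every class (Ikzf1 and Ikzf5). Capitals mark TATAAA, the TATA box, and GGGAA, the core sequence that Ikaros factors bind. Both were searched on both strands.
Foxp3, chrX:7579426-7579675, plus strand: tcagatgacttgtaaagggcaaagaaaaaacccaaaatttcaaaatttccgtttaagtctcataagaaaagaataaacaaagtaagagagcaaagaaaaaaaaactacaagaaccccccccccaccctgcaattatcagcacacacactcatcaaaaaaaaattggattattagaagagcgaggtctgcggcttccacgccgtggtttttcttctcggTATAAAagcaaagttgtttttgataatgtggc
Ikzf1, chr11:11685675-11685924, plus strand: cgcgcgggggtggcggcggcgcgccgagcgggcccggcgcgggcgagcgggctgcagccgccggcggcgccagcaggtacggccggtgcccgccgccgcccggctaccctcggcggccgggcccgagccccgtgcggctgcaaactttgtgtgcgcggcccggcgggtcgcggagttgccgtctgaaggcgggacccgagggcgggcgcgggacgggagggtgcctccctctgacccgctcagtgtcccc
Ikzf5, chr7:131410479-131410728, minus strand: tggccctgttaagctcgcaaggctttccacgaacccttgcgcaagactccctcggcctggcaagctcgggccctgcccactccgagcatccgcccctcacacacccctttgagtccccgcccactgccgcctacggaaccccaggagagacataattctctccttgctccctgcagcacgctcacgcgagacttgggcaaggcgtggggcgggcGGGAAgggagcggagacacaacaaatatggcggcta
The Foxp3 window held 1 TATAAA, no GGGAA, 6 CpG dinucleotides and 37.6% G or C. The Ikzf1 window held neither motif, 44 CpG dinucleotides and 82% G or C. The Ikzf5 window held 1 GGGAA, no TATAAA, 18 CpG dinucleotides and 64% G or C. Of 32851 promoter windows of that length, 12.4% held TATAAA and 56.2% held GGGAA, and the medians were 6 CpG dinucleotides and 52.4% G or C. The Ikzf1 window thus had more CpG dinucleotides than 99.5% of windows, the Ikzf5 window more than 78.3%, and the Foxp3 window stood at the median. RefSeq listed another window for Foxp3, with neither motif, and another for Ikzf1, with 2 GGGAA. A match describes letters in the window and shows no binding.

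After filters 4594 FMD and 4855 ad libitum cells remained, with median totals of 5729 and 5503 UMIs (unique molecular identifiers, each standing for 1 captured transcript), and 4 of their barcodes occurred in both libraries. Cells were clustered without the 6 genes, so that none of them could place a cell, and 19 lymphocyte classes were named "-like" from markers. Of 17 regulatory T cell markers, with Foxp3 and the Ikaros genes left out, 16 in the FMD library and 17 in the ad libitum library were higher in regulatory T-like than in conventional CD4 T-like cells. These markers had served to name the clusters, so the counts describe the classes and do not test their names. Levels are given as CPM, the UMIs of a gene summed over the cells of a class and scaled to the UMIs of those cells outside immunoglobulin and mitochondrial genes.

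Regulatory T-like cells formed 2 clusters, called here by their leading gene. One was led by Il10, which encodes an anti-inflammatory cytokine, and the other by Penk, which encodes the opioid precursor proenkephalin. The FMD library had 196 Il10-led and 90 Penk-led cells, and the ad libitum library had 92 Il10-led and 102 Penk-led cells. Il10-led cells were thus 68.5% [62.8, 73.9] of FMD and 47.4% [40.2, 54.7] of ad libitum regulatory T-like cells (Clopper-Pearson).

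**Figure D1:**
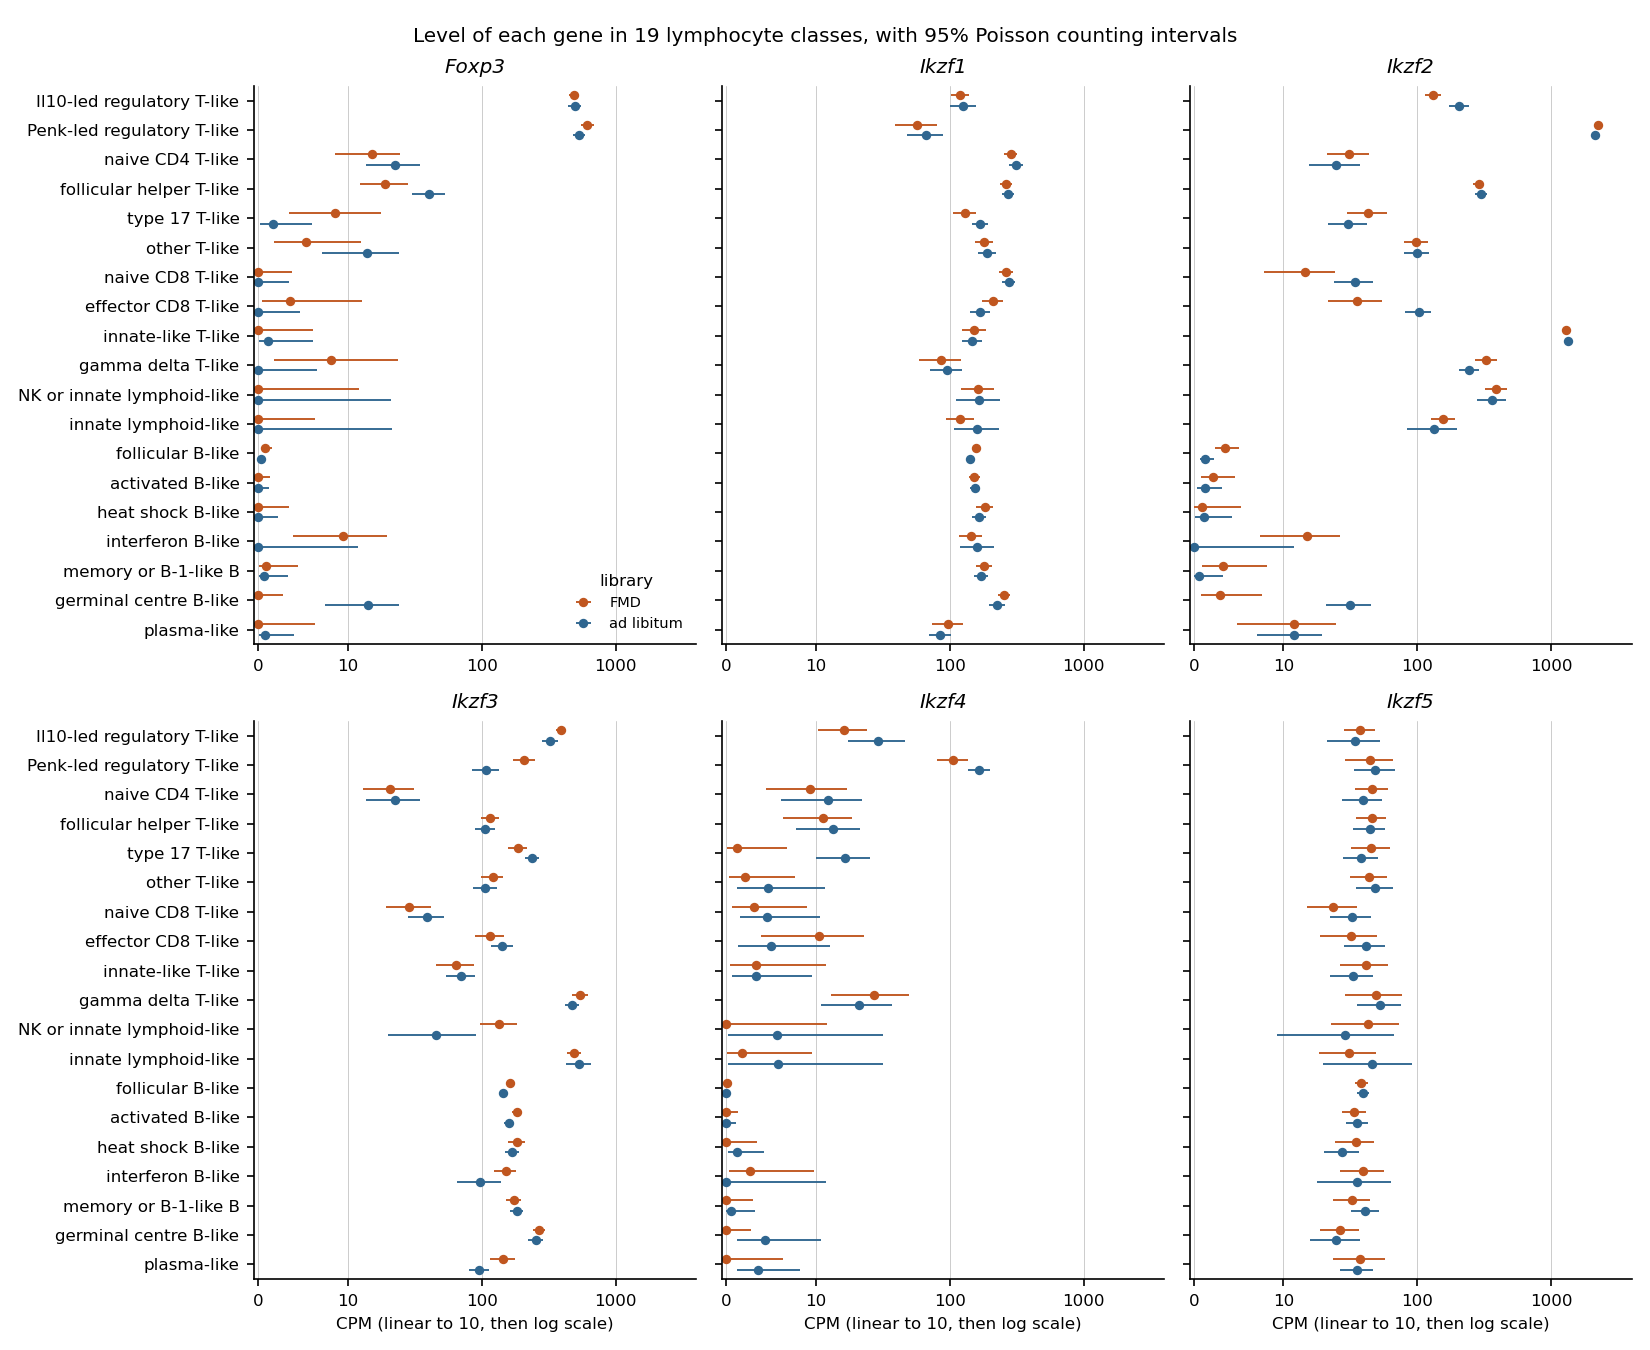
Level of each of the 6 genes (CPM, linear to 10 and on a log scale above) in 19 lymphocyte classes, with exact Poisson 95% intervals, in the FMD (orange, upper point) and ad libitum (blue, lower point) libraries. Foxp3 stands out in both regulatory T-like clusters and Ikzf4 in the Penk-led one, Ikzf2 is also high in innate-like T-like cells (1291 and 1339 CPM), and Ikzf5 lies between 23.6 and 52.9 CPM in every class.

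Foxp3 was concentrated in the regulatory T-like clusters, a pattern known when it was chosen and given as a description. In the FMD library its level was 485 CPM [450.2, 522] in Il10-led and 614 CPM [550.3, 682] in Penk-led cells. In the ad libitum library it was 495 CPM [441, 554] in Il10-led and 531 CPM [478, 589] in Penk-led cells. The Penk-led level was the higher one in both libraries, but only in the FMD library did the intervals not overlap.

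The regulatory clusters held 91.8% of all FMD Foxp3 UMIs (1056 of 1150) and 85.3% of all ad libitum Foxp3 UMIs (664 of 778). Next in order were follicular helper T-like cells, of the kind that guide B cells in germinal centres, with 19.01 CPM in the FMD and 40.1 CPM in the ad libitum library, and then naive CD4 T-like cells with 15.04 and 22.4 CPM. The intervals of these neighbours overlapped in both libraries, and 8 of 19 classes held no Foxp3 UMI in each library. Some of the Foxp3 outside T cells sat in single cells. Of the 7 UMIs in FMD interferon B-like cells 6 came from 1 cell, and of the 13 UMIs in ad libitum germinal centre B-like cells 7 came from 1 cell.

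With every cell thinned to 2000 UMIs, 61.1% [54.9, 67.01] of FMD and 56.98% [49.4, 64.3] of ad libitum regulatory T-like cells held a Foxp3 UMI. Follicular B-like cells, which should lack Foxp3 and show the background of free RNA, were at 0.179% and 0.0560%. Before thinning, 84.3% of FMD and 81.4% of ad libitum regulatory T-like cells had a Foxp3 UMI, against 0.353% and 0.110% of follicular B-like cells. The median totals were 6745 FMD and 6634 ad libitum UMIs in regulatory T-like cells, and 5145 and 4875 UMIs in follicular B-like cells. The 3′ end of the Foxp3 gene model is overlapped on the other strand by Ccdc22 (1437 bases) and the noncoding Gm36995, and that of Ikzf2 by the antisense Gm29114. The strand setting of the counting is not given in the sources used here. Ccdc22 stood at 16.2 FMD and 15.6 ad libitum CPM in follicular B-like cells, where Foxp3 had 6 and 2 UMIs.

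Regulatory T-like cells were set against conventional CD4 T-like cells, which are the naive CD4, follicular helper, type 17 and other T-like classes together. Foxp3 was at 520.5 CPM in regulatory and 12.8 CPM in conventional cells of the FMD library (log2 ratio 5.34 [4.95, 5.77]), and at 514 and 20.05 CPM in those of the ad libitum library (4.68 [4.35, 5.02]). Ikzf2 was at 706 and 129.8 CPM in the FMD library (2.44 [2.299, 2.59]) and at 1212 and 123 CPM in the ad libitum library (3.30 [3.15, 3.44]). Ikzf4 was at 40.9 and 6.77 CPM in the FMD library (2.60 [1.96, 3.27]) and at 101 and 12.3 CPM in the ad libitum library (3.05 [2.57, 3.54]).

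These 3 genes were at least 4-fold higher in regulatory than in conventional CD4 T-like cells in both libraries. Ikzf3 was also higher, at 339 and 106 CPM in the FMD library (1.67 [1.496, 1.85]) and at 209.9 and 125 CPM in the ad libitum library (0.74 [0.53, 0.96]). Ikzf1 was lower in regulatory cells, at 103 and 224 CPM in the FMD library (−1.12 [−1.34, −0.90]) and at 95.2 and 235 CPM in the ad libitum library (−1.30 [−1.58, −1.03]). For Ikzf5 the intervals of the ratio included 0 in both libraries. At least 2-fold apart were 5 of the 6 genes in the FMD library and 4 in the ad libitum library, beside 15.2% and 13.8% of all genes with at least 20 UMIs. The genes were picked for this pattern, so nothing is read from those counts.

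Ikzf2 separated the regulatory T-like clusters far more than Foxp3 did. In the FMD library it was at 131 CPM [113, 151] in Il10-led and 2216 CPM [2094, 2343] in Penk-led cells. In the ad libitum library it was at 205 CPM [171, 244] in Il10-led and 2124 CPM [2016, 2237] in Penk-led cells. Il10-led cells thus had 16.9-fold less in the FMD and 10.4-fold less in the ad libitum library, with intervals far apart. Ikzf4, the Foxp3 partner, followed the same order, with 16.3 CPM in Il10-led and 106 CPM in Penk-led FMD cells (−2.69 [−3.44, −1.99]), and 29.3 CPM in Il10-led and 167 CPM in Penk-led ad libitum cells (−2.51 [−3.31, −1.78]).

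The order was the opposite for Ikzf3 and Ikzf1. Ikzf3 was at 388 CPM in Il10-led and 207 CPM in Penk-led FMD cells (0.90 [0.61, 1.21]), and at 322 CPM in Il10-led and 108 CPM in Penk-led ad libitum cells (1.58 [1.19, 1.99]). Ikzf1 was at 120.4 CPM in Il10-led and 57.2 CPM in Penk-led FMD cells (1.07 [0.52, 1.66]), and at 127 CPM in Il10-led and 66.4 CPM in Penk-led ad libitum cells (0.94 [0.39, 1.498]). The Penk-led values were the lowest Ikzf1 levels of the 19 classes in both libraries, although their intervals overlapped those of the next class.

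Foxp3 differed little between the clusters, with Il10-led over Penk-led log2 ratios of −0.34 [−0.53, −0.15] (FMD) and −0.10 [−0.33, 0.12] (ad libitum), and the intervals for Ikzf5 included 0. At least 2-fold apart were 3 of 6 genes in the FMD library (Ikzf1, Ikzf2 and Ikzf4) and 3 of 6 in the ad libitum library (Ikzf2, Ikzf3 and Ikzf4), beside 12.2% and 10.5% of all genes. The clusters were drawn from the same cells, so these values describe them and test nothing.

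**Figure D2:**
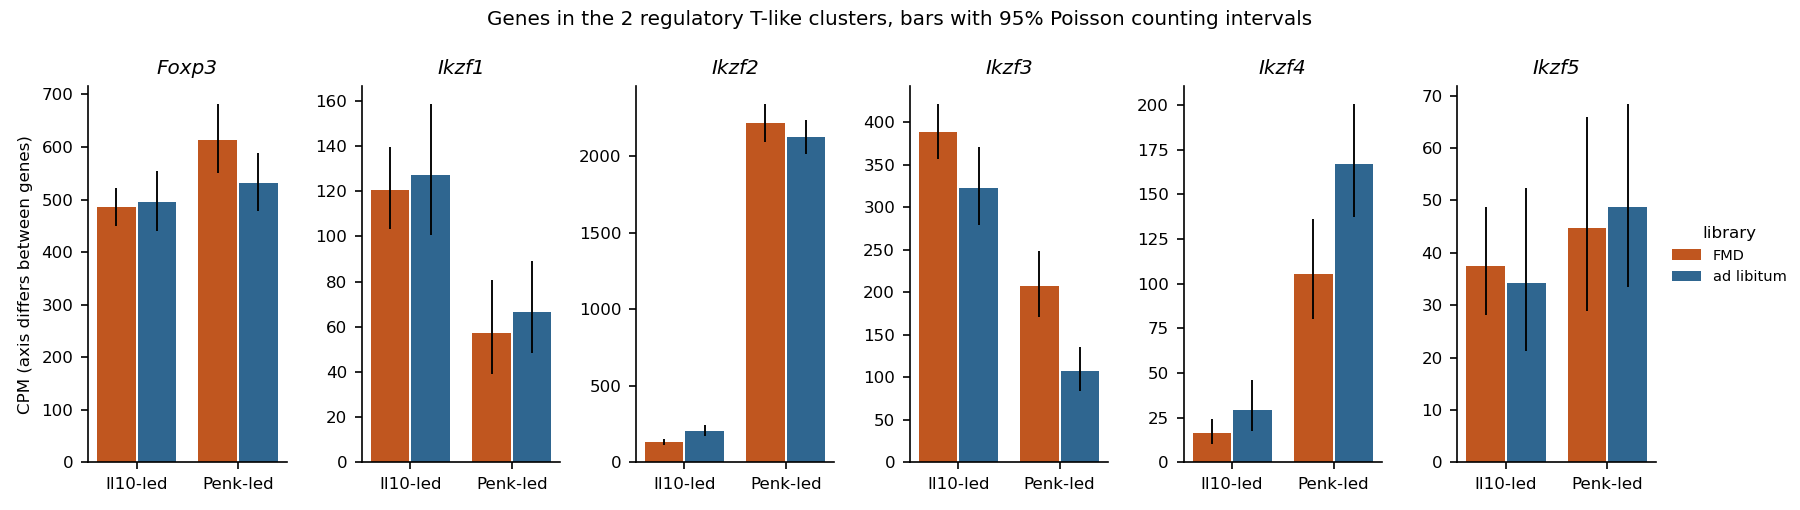
Level of each gene (CPM, bars from 0 with exact Poisson 95% intervals, a separate axis per gene) in the Il10-led and Penk-led regulatory T-like clusters of the FMD (orange) and ad libitum (blue) libraries. Ikzf2 and Ikzf4 are higher in Penk-led cells, Ikzf1 and Ikzf3 in Il10-led cells, and Foxp3 lies between 485 and 614 CPM throughout.

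Gata3, which was singled out after its values had been seen, also divided the clusters. It encodes GATA3, a factor found in a subset of colon regulatory T cells. Gata3 had 43.5 CPM in Il10-led and 696 CPM in Penk-led FMD cells (−4.00 [−4.40, −3.61]), and 83.1 CPM in Il10-led and 579 CPM in Penk-led ad libitum cells (−2.80 [−3.25, −2.38]). Gata3 was thus high in the cluster where Ikzf2 was high.

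Single cells thinned to 2000 UMIs showed how Ikzf2 was spread. In the Il10-led cluster 17.8% [12.5, 24.2] of FMD and 20.99% [12.7, 31.5] of ad libitum cells held an Ikzf2 UMI, and in the Penk-led cluster 95.1% [87.98, 98.7] of FMD and 90.8% [83.3, 95.7] of ad libitum cells did. Follicular B-like cells were at 0.298% and 0.168%, far below either cluster. Before thinning the shares were 33.2% of FMD and 40.2% of ad libitum Il10-led cells, 97.8% and 99.02% of Penk-led cells, and 0.882% and 0.603% of follicular B-like cells. The median totals were 7030.5 FMD and 6780 ad libitum UMIs in Il10-led cells and 6156 and 6510 UMIs in Penk-led cells.

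After thinning, 148 of 180 FMD and 64 of 81 ad libitum Il10-led cells held no Ikzf2 UMI, and the highest cell had 5 and 6. In the Penk-led cluster 4 of 82 FMD and 9 of 98 ad libitum cells held none, and the highest cell had 13 and 14. The median cell had no Ikzf2 UMI in the Il10-led cluster, and 5 FMD and 4 ad libitum UMIs in the Penk-led cluster. The Foxp3 median was 1 UMI in both clusters and both libraries.

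**Figure D3:**
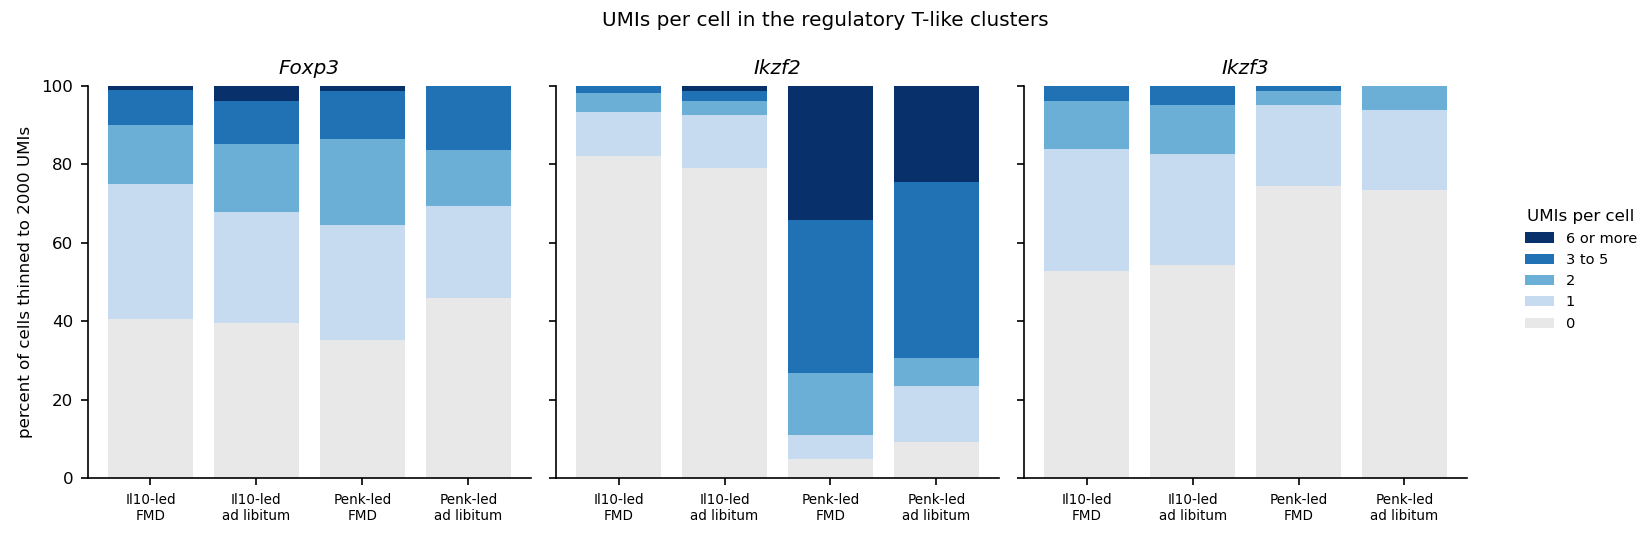
Share of cells (percent, bars add to 100) with 0, 1, 2, 3 to 5, or 6 or more UMIs of Foxp3, Ikzf2 and Ikzf3 after thinning to 2000 UMIs, in the Il10-led and Penk-led clusters, FMD left of ad libitum. Cells with 6 or more Ikzf2 UMIs are 0% of FMD and 1.23% of ad libitum Il10-led cells, and 34.1% of FMD and 24.5% of ad libitum Penk-led cells.

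Foxp3 and Ikzf2 were found in the same cell in 11.7% of FMD and 14.8% of ad libitum Il10-led cells, and in 63.4% and 50% of Penk-led cells. Foxp3 without Ikzf2 was the pattern of 47.8% of FMD and 45.7% of ad libitum Il10-led cells, but of 1.22% and 4.08% of Penk-led cells. Within a cluster, cells with and without a Foxp3 UMI had overlapping intervals for Ikzf2. In the Il10-led cluster Ikzf2 was found in 19.6% [12.6, 28.4] of FMD cells with Foxp3 and 15.1% [7.77, 25.4] of those without, and in 24.5% [13.3, 38.9] and 15.6% [5.28, 32.8] of such ad libitum cells. In the Penk-led cluster the shares were 98.1% [89.9, 99.95] with and 89.7% [72.6, 97.8] without Foxp3 (FMD), and 92.5% [81.8, 97.9] with and 88.9% [75.9, 96.3] without (ad libitum). At this depth a cell with no Foxp3 UMI may still express the gene.

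**Figure D4:**
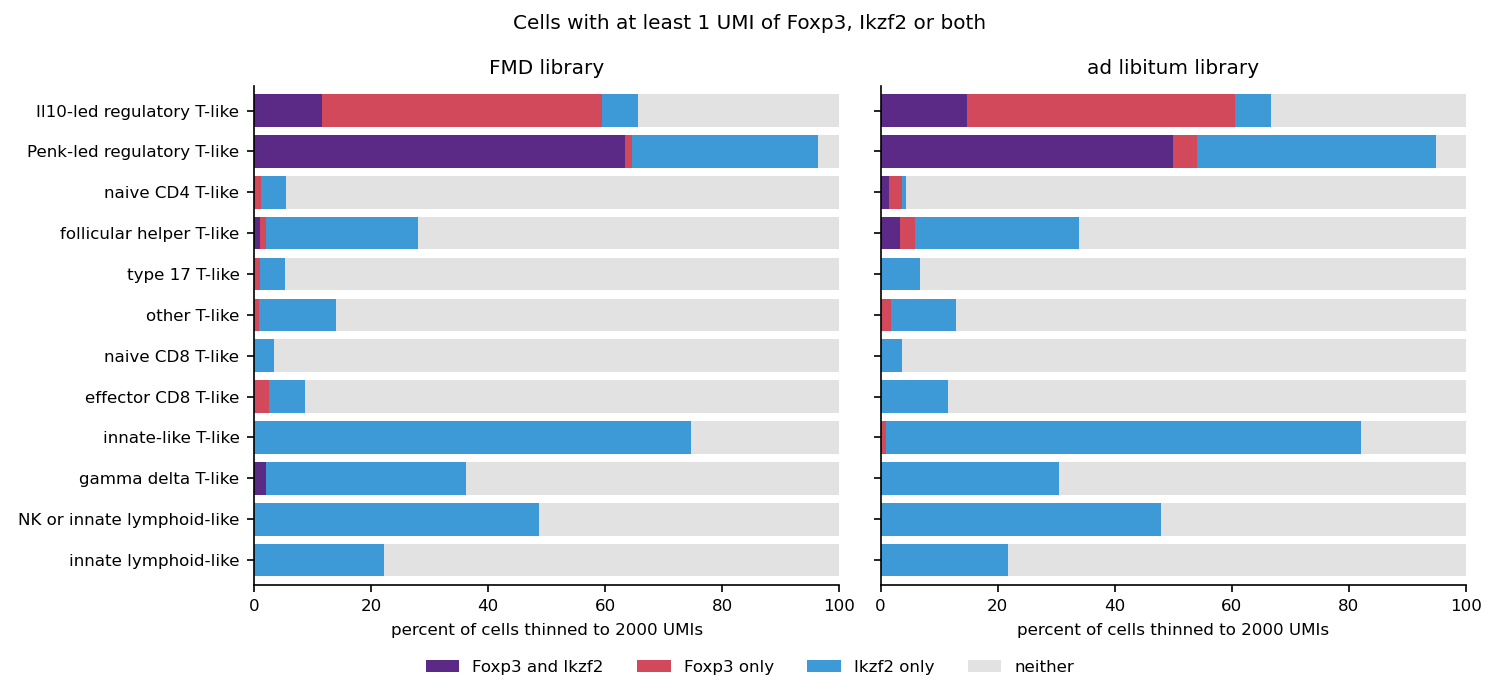
Share of cells (percent) with UMIs of both Foxp3 and Ikzf2 (purple), Foxp3 only (red), Ikzf2 only (blue) or neither (grey) after thinning to 2000 UMIs, in T and innate lymphoid classes of the FMD (left) and ad libitum (right) libraries. Cells with both make up 63.4% and 50% of Penk-led cells, and 74.7% and 81.2% of innate-like T-like cells hold Ikzf2 without Foxp3.

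Ikzf2 was not restricted to regulatory T-like cells. Innate-like T-like cells, led by genes such as the NK receptor genes Klra7 and Klrd1, had 1291 CPM [1202, 1385] in the FMD and 1339 CPM [1265, 1416] in the ad libitum library, with 0 and 1 Foxp3 UMIs in 79 and 121 cells (taking 3 counts as the limit that a count of 0 allows, up to 4.93 CPM of Foxp3 in the FMD library). They came directly after Penk-led cells in both libraries, with no overlap of intervals above or below. NK or innate lymphoid-like cells followed with 387 FMD and 361 ad libitum CPM, gamma delta T-like cells with 326 and 243 CPM, and follicular helper T-like cells with 287 and 298 CPM. Neighbours among these 3 classes overlapped, and the order of the last 2 differed between the libraries. Of all Ikzf2 UMIs, 41.9% in the FMD and 40.6% in the ad libitum library lay in regulatory T-like cells. Ikzf4 did not share the innate-like peak, with 2 and 3 UMIs there.

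Ikzf4 was found in few UMIs, 139 in all FMD and 243 in all ad libitum kept cells. Penk-led cells stood first in both libraries, at 106 CPM [80.3, 136] in FMD and 167 CPM [137, 201] in ad libitum cells, with no overlap with the next class. Then came Il10-led cells (16.3 and 29.3 CPM) and gamma delta T-like cells (27.2 and 21.2 CPM), whose intervals overlapped and whose order differed between the libraries. The follicular, activated, heat shock, interferon and memory or B-1-like B classes together held 3 UMIs in each library, although they were 59.9% of FMD and 63.3% of ad libitum cells.

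Ikzf3 was high in several T and innate lymphoid classes and present in all B-like classes. Gamma delta T-like cells had 543 CPM [471, 624] in the FMD and 474 CPM [419, 534] in the ad libitum library, and innate lymphoid-like cells had 487 CPM [432, 547] and 529 CPM [426, 649]. Il10-led regulatory T-like cells came next with 388 CPM [357, 422] and 322 CPM [279, 371]. Germinal centre B-like cells had 269 and 252 CPM and follicular B-like cells 163 and 144 CPM. Lowest were naive CD4 (20.7 and 22.4 CPM) and naive CD8 T-like cells (28.8 and 38.7 CPM), whose intervals overlapped.

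The naive T cells that were lowest for Ikzf3 were highest for Ikzf1. Naive CD4 T-like cells led with 286 CPM [254, 319.7] in the FMD and 314 CPM [278, 353] in the ad libitum library, followed by naive CD8 (264 and 276 CPM) and follicular helper T-like cells (263 and 273 CPM), with overlap between neighbours. Over the 19 classes Ikzf1 ranged from 57.2 to 286 CPM in the FMD and from 66.4 to 314 CPM in the ad libitum library. Ikzf5 was the most even, from 23.6 to 48.9 CPM and from 24.9 to 52.9 CPM, and every class overlapped its neighbour. The Ikzf5 gene model lies within a longer same-strand model of Fgfr2 and overlaps Pstk on the other strand at its 3′ end, so reads of these genes may not be told apart fully.

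Diet was compared within regulatory T-like cells, which were 6.23% of FMD and 3.996% of ad libitum kept cells (log2 ratio 0.64 [0.37, 0.91]). Foxp3 had 1056 UMIs (520.5 CPM) in the FMD and 664 UMIs (514 CPM) in the ad libitum library, a log2 ratio of 0.02 [−0.12, 0.16]. Ikzf2 had 1432 UMIs (706 CPM) in FMD and 1565 UMIs (1212 CPM) in ad libitum cells (−0.78 [−0.88, −0.68]). Ikzf4 had 83 UMIs (40.9 CPM) in FMD and 131 UMIs (101 CPM) in ad libitum cells (−1.31 [−1.72, −0.90]). Foxp3 was thus close to level, while Ikzf2 and Ikzf4 were lower in FMD cells.

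Ikzf3 was higher, with 687 UMIs (339 CPM) in FMD and 271 UMIs (209.9 CPM) in ad libitum cells (0.69 [0.49, 0.90]). The ratios of Ikzf1 (0.11 [−0.22, 0.45]) and Ikzf5 (−0.08 [−0.60, 0.44]) had intervals that included 0. Ikzf4 alone of the 6 genes was at least 2-fold apart, as were 3.96% of the 8252 genes with at least 20 UMIs. Of the 4455 genes with at least 100 UMIs, Ikzf4 among them, 29 were 2-fold apart.

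Since Il10-led cells made up more of the FMD than of the ad libitum regulatory T-like cells, each ratio was also taken within a cluster. In Il10-led cells Ikzf2 was at 131 CPM in FMD and 205 CPM in ad libitum cells (−0.64 [−0.98, −0.31]), and in Penk-led cells at 2216 and 2124 CPM (0.06 [−0.05, 0.17]). After thinning, 148 of 180 FMD and 64 of 81 ad libitum Il10-led cells held no Ikzf2 UMI, and the intervals of these shares overlapped. With both clusters given equal weight, a step chosen after seeing the data, the Ikzf2 ratio was 0.01, against −0.78 for the summed cells. Ikzf4 was at 16.3 CPM in FMD and 29.3 CPM in ad libitum Il10-led cells (−0.84 [−1.79, 0.12]), and at 106 and 167 CPM in Penk-led cells (−0.66 [−1.14, −0.19]), with an equal-weight ratio of −0.69. The lower FMD level in Il10-led cells was not seen after thinning, when 177 of 180 FMD and 81 of 81 ad libitum cells held no Ikzf4 UMI. Ikzf4 was lower in FMD than in ad libitum Penk-led cells in each alternative clustering, while the size of the difference varied. At Leiden resolution 2, with 77 FMD and 78 ad libitum Penk-led cells, Ikzf4 was closer, at 119 and 164 CPM (57 and 83 UMIs). No interval was computed for that ratio.

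Ikzf3 was at 388 CPM in FMD and 322 CPM in ad libitum Il10-led cells (0.27 [0.03, 0.51]), and at 207 and 108 CPM in Penk-led cells (0.95 [0.51, 1.39]). At Leiden resolution 2 Ikzf3 was closer in Penk-led cells too, at 212 FMD and 127 ad libitum CPM. It was thus higher in FMD cells of both clusters by summed UMIs, while the shares of cells at equal depth overlapped. After thinning, 25.6% [16.6, 36.4] of FMD and 26.5% [18.1, 36.4] of ad libitum Penk-led cells held an Ikzf3 UMI, against 57.8% and 43.1% before thinning. In Il10-led cells the shares were 47.2% [39.8, 54.8] and 45.7% [34.6, 57.1] after and 86.2% and 82.6% before thinning, and follicular B-like cells, which express the gene, were at 26.9% and 22.5%. Summed after thinning, the Ikzf3 ratio over all regulatory T-like cells was 0.19 [−0.20, 0.58]. Within the clusters none of the 6 genes was 2-fold apart between diets, beside 4.86% of genes in Il10-led and 5.02% in Penk-led cells.

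Other RNA in the regulatory T-like cells also differed between the libraries. The 5 heat shock markers summed to 3151 CPM in FMD and 3835 CPM in ad libitum cells, and the 6 interferon markers to 251 and 167 CPM, with none of either list at 0. The 7 neutrophil markers summed to 60.1 and 34.8 CPM and the 6 epithelial markers to 15.3 and 36.4 CPM, with 3 of each list at 0 in each library. The 8 B cell markers summed to 37.5 and 34.8 CPM (none at 0), the 8 plasma cell markers to 358 and 353 CPM (1 at 0 in each), and the 9 monocyte or macrophage markers to 7.39 and 7.74 CPM (5 at 0 in each). Prdm1 is on both the plasma cell list and the list of Foxp3 partner factors, so the plasma cell sum need not come from plasma cell RNA alone. Igha, the IgA heavy chain gene of plasma cells, was at 69.99 FMD and 382 ad libitum CPM in regulatory T-like cells. It was lower in FMD cells of both the Il10-led (61.2 and 192 CPM) and the Penk-led cluster (93.01 and 554 CPM). The same order held in conventional CD4 (65.98 and 204 CPM), innate-like (50.98 and 254 CPM) and follicular B-like cells (62.8 and 221 CPM). The part of all these genes in the diet ratios was not tested.

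**Figure D5:**
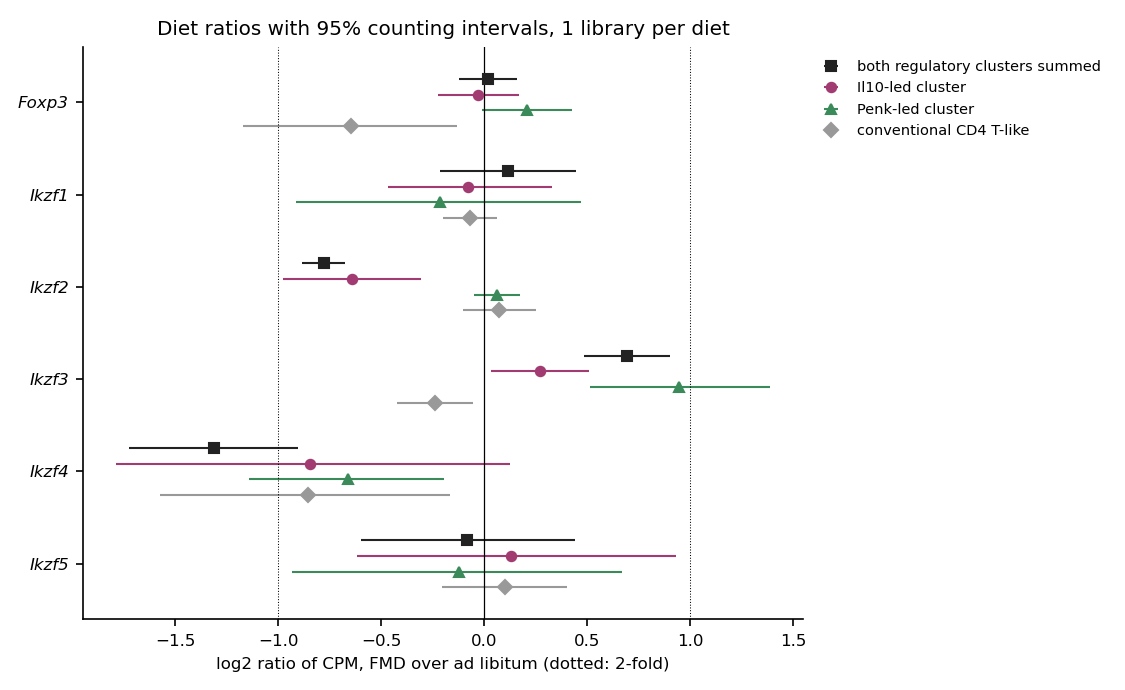
Log2 ratio of CPM, FMD over ad libitum, with exact 95% counting intervals, for each gene in both regulatory T-like clusters summed (black squares), in the Il10-led (purple circles) and Penk-led (green triangles) clusters and in conventional CD4 T-like cells (grey diamonds). For Ikzf2 the summed value of −0.78 stands apart from 0.06 in Penk-led cells, and for Ikzf4 all 4 values lie below 0.

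In conventional CD4 T-like cells Foxp3 was at 12.8 CPM (53 UMIs) in FMD and 20.05 CPM (85 UMIs) in ad libitum cells (−0.65 [−1.17, −0.13]). Ikzf3 was at 106 and 125 CPM (−0.24 [−0.42, −0.05]) and Ikzf4 at 6.77 and 12.3 CPM (−0.86 [−1.58, −0.17]). The make-up of this group differed, with 96 type 17 T-like cells of 595 in the FMD and 157 of 613 in the ad libitum library. By class, the Ikzf3 ratio was −0.34 [−0.63, −0.05] in type 17, 0.13 [−0.21, 0.48] in follicular helper, 0.18 [−0.23, 0.59] in other and −0.12 [−1.06, 0.83] in naive CD4 T-like cells, so that only the type 17 interval lay below 0. Of the 28 FMD and 52 ad libitum Ikzf4 UMIs, 1 and 20 lay in type 17 T-like cells. In the summed group none of the 6 genes was 2-fold apart, beside 2.69% of all genes. With finer clustering (Leiden resolution 2) the regulatory T-like class held 299 FMD and 219 ad libitum cells, against 286 and 194 here. The ratios of the conventional CD4 T-like group and its classes were not recomputed for that boundary.

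Within that group, follicular helper T-like cells had 25 Foxp3 UMIs in 16 cells in the FMD and 51 UMIs in 20 cells in the ad libitum library (−1.08 [−1.83, −0.36]), and Foxp3 was the 1 gene of the 6 that was 2-fold apart (3.31% of all genes). After thinning, 2 of 4 FMD and 6 of 11 ad libitum follicular helper T-like cells with Foxp3 also held Ikzf2, against 49 of 185 and 52 of 175 of those without Foxp3. In type 17 T-like cells Ikzf4 had 1 UMI in FMD and 20 UMIs in ad libitum cells (−3.76 [−9.13, −1.12]), beside 4.7% of all genes 2-fold apart.

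In effector CD8 T-like cells Ikzf2 was at 35.3 CPM (20 UMIs) in FMD and 102 CPM (82 UMIs) in ad libitum cells (−1.54 [−2.32, −0.82]; 4.35% of genes 2-fold apart). After thinning, 6.25% [2.06, 13.99] of FMD and 11.4% [6.05, 19.1] of ad libitum cells of this class held an Ikzf2 UMI, with overlapping intervals, and the plasma cell genes Igha and Jchain were among its leading genes. In naive CD8 T-like cells Ikzf2 was at 14.4 and 34.1 CPM (−1.25 [−2.25, −0.32]; 4.42% of genes), and 13 of the 37 ad libitum UMIs came from 1 cell. In innate-like T-like cells, the other class rich in Ikzf2, its ratio was −0.05 [−0.18, 0.08] and none of the 6 genes was 2-fold apart (4.44% of genes).

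Single cells weighed on the ratios of Ikzf2 in B-like classes. Follicular B-like cells had 30 FMD and 11 ad libitum UMIs (1.47 [0.43, 2.62]; 1.35% of genes 2-fold apart), with 9 of the FMD UMIs in 1 cell. Germinal centre B-like cells had 4 and 29 UMIs (−3.41 [−5.38, −1.90]; 5.57% of genes), with 19 of the ad libitum UMIs in 1 cell. In NK or innate lymphoid-like cells Ikzf3 had 41 FMD and 8 ad libitum UMIs (1.55 [0.44, 2.86]; 9.6% of genes) from 49 and 26 cells.

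Genes tied to Foxp3 and the Ikaros factors were read from fixed lists. Of the Foxp3-associated surface and effector genes, 13 of 17 in the FMD library and 16 of 18 in the ad libitum library were at least 2-fold higher in regulatory than in conventional CD4 T-like cells, beside 9.12% and 7.27% of all genes. Of 11 genes known to be low in Foxp3 cells, 9 in each library were at least 2-fold lower there (6.04% and 6.57% of all genes), among them Tcf7 and Lef1, factors of naive T cells. Genes of both lists also served as markers for naming clusters, so these counts describe the classes.

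Between diets the Foxp3-associated list had a median log2 ratio of −0.39 in regulatory T-like cells, against 0.03 over all genes. None of its 18 genes was 2-fold higher in FMD cells and 2 were 2-fold lower (2.34% and 1.62% of all genes). The lower ones were Ccr8, a chemokine receptor of tissue regulatory T cells, with 14 FMD and 27 ad libitum UMIs (−1.60 [−2.64, −0.62]), and Tigit, an inhibitory receptor, with 18 and 27 UMIs (−1.24 [−2.18, −0.32]). The highest ratios were those of Il10, at 484 FMD and 274 ad libitum CPM (0.82 [0.64, 1.00]), and Nt5e, which encodes the adenosine-forming enzyme CD73, at 259 and 172 CPM (0.59 [0.36, 0.82]). Within the clusters the Il10 ratio was 0.22 [0.04, 0.40] in Il10-led and 1.67 [0.92, 2.47] in Penk-led cells, the Nt5e ratio 0.50 [0.20, 0.80] and 0.39 [−0.02, 0.80], the Tigit ratio −1.71 [−2.97, −0.49] in Il10-led cells and the Ccr8 ratio −0.67 [−1.76, 0.35] in Penk-led cells. Within a cluster the list's median was −0.07 in Il10-led and −0.12 in Penk-led cells, against 0.03 and 0.01 over all genes there.

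Of 28 Foxp3 partner factors, 27 had enough UMIs in regulatory T-like cells, none was 2-fold apart between diets, beside 3.96% of all genes, and the median was 0.09. Lowest were Gata3, at 223 FMD and 343 ad libitum CPM (−0.62 [−0.81, −0.43]), and Stub1, a ubiquitin ligase that targets Foxp3, at 45.8 and 69.7 CPM (−0.60 [−1.04, −0.17]). Within the clusters the Gata3 ratio was −0.93 [−1.49, −0.37] in Il10-led cells and turned to 0.27 [0.06, 0.47] in Penk-led cells, which held most of its UMIs, and the Stub1 ratio was −0.35 [−0.91, 0.23] in Il10-led and −1.34 [−2.25, −0.50] in Penk-led cells. Highest were Tbx21, which encodes the type 1 factor T-bet, with 14 and 7 UMIs (0.35 [−1.06, 1.90]), and Cbfb, the partner of Runx factors, at 75.4 and 59.6 CPM (0.34 [−0.07, 0.75]).

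The Ikaros factors act through NuRD and other repressors, and Ikzf1 and Ikzf3 are degraded through cereblon in human cells given lenalidomide. Of 22 genes of these complexes 21 had enough UMIs, none was 2-fold apart between diets, again beside 3.96% of all genes, and the median was 0.11. Lowest were Ddb1, of the ligase that holds cereblon, at 77.9 FMD and 105 ad libitum CPM (−0.42 [−0.77, −0.08]), and Mbd3 of NuRD, at 42.9 and 55.8 CPM (−0.38 [−0.85, 0.09]). Highest were Cul4b, a cullin of such ligases, at 24.2 and 15.5 CPM (0.64 [−0.14, 1.47]), and Mta1 of NuRD, at 47.8 and 37.2 CPM (0.36 [−0.15, 0.89]).

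Of 8 measured genes known to be low in Foxp3 cells, 2 were at least 2-fold higher in FMD cells, beside 2.34% of all genes, and the median was −0.31. They were Pde3b, a phosphodiesterase gene that Foxp3 represses, with 57 FMD and 13 ad libitum UMIs (1.48 [0.59, 2.47]), and Themis, a T cell receptor signalling gene, with 23 and 7 UMIs (1.06 [−0.20, 2.53]). Lowest were the cytokine gene Il2, with 10 and 11 UMIs (−0.79 [−2.18, 0.59]), and the repressor gene Bach2, with 17 and 18 UMIs (−0.73 [−1.78, 0.31]). Within the clusters the list's median was 0.95 in Il10-led cells (5 measured genes) and −0.45 in Penk-led cells (3 measured genes). The sign of the summed median thus held in Penk-led cells only. Of 19 measured other lymphoid factors, 1 was 2-fold apart, a share near the 3.96% of all genes. It was Tcf4, an E protein gene, with 23 and 7 UMIs (1.06 [−0.20, 2.53]), followed by Zeb2, a zinc finger repressor gene, at 138 and 85.96 CPM (0.68 [0.36, 1.01]). The Zeb2 ratio was 0.52 [0.14, 0.92] in Il10-led and −0.11 [−0.86, 0.62] in Penk-led cells. Bach2 and Gata3 were the lowest of that list too, and its median was 0.02. Within the clusters the list was less level. In Il10-led cells 3 of 17 measured factors were at least 2-fold higher in FMD cells, beside 3.34% of all genes, and none lower. In Penk-led cells 2 of 13 were at least 2-fold lower, beside 2.75% of all genes, and none higher.

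Across the 38 points formed by 19 classes in both libraries, Pearson's r of log2(CPM + 10) ranked 8636 genes by their likeness to each of the 6. The points share libraries and the classes were built from the same cells, so the values are a description. Most like Foxp3 were Ncmap (0.93), Lrrc32 (0.90), Itgb8 (0.89), Dst (0.85) and Tff1 (0.84), of which Lrrc32 and Itgb8 encode proteins that help activate TGF-beta. Most like Ikzf2 were Tox (0.89), Adora2a, Tnfrsf9, Pdcd1 and Il2rb (0.83), and most like Ikzf4 were Tff1 (0.86), Dst, Penk, Itgb8 and Med15 (0.84). For Ikzf3 they were Mafg (0.81), Aldoa, B9d2, Adam9 and Unc119 (0.76), for Ikzf1 Pip4k2a (0.76), Dennd2d, Commd8, Patz1 and Eif3e (0.69), and for Ikzf5 Wasl (0.67), Samd4b, Slc37a3, Tlcd1 and Zfp148 (0.59). Among the 6 themselves the highest values were 0.80 for Foxp3 with Ikzf4, 0.66 for Ikzf2 with Ikzf4 and 0.50 for Foxp3 with Ikzf2, and Ikzf1 had a negative value with each of the others.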

How the data were processed

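The submitters' processing notes name Seurat 2.3.4, CASAVA 1.8 and Cell Ranger 3.1.0, without roles, and the build GRCm38. The deposited matrices hold raw UMI counts per gene and barcode, not normalized, for 5877 FMD and 6089 ad libitum barcodes with 35280790 and 35712762 UMIs and at least 500 per barcode. Left out were cells with under 200 genes (441 FMD, 475 ad libitum), over 20% mitochondrial UMIs (694, 661), or at least 5 UMIs and 0.5 per 1000 from 2 of the B, T and myeloid panels (148, 98, taken as doublets). Clusters came from scanpy 1.11.5 (2000 variable genes without the 6 genes, 30 components, 15 neighbours, Leiden resolution 1), 23 over all cells and 15 over T and innate lymphoid cells. They were named from fixed markers, and 149 FMD and 113 ad libitum cells stayed unnamed.

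Intervals are exact (Poisson for levels, conditional binomial for ratios, Clopper-Pearson for shares), and the code for those of ratios was checked on simulated counts. The simulated counts were independent Poisson draws, as the intervals assume. The check therefore does not cover UMIs that gather in single cells. Thinning to 2000 UMIs left out 198 FMD and 248 ad libitum cells. The 6 genes and all lists were chosen with earlier results of these data known. Named from each list are the 2 highest and 2 lowest diet ratios in regulatory T-like cells among genes with at least 20 UMIs, and for each of the 6 genes the 5 most alike among genes with at least 200 UMIs. Alternatives were other scaling, thinning, weights, filters, cluster resolutions, marker scores and leaving out the highest cell.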

Additional observations from a re-analysis of the deposited data

Results flagged for a closer look

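In 13 cases the diet ratio of an Ikaros gene in 1 class had an interval on one side of 0 while the same gene in another class of at least 50 cells per library had its interval on the other side. These differences between classes were not tested. There were 15 classes of that size, and how often other genes show such opposite intervals was not counted. Of all genes with at least 20 UMIs in follicular B-like cells, 7.89% had an interval above 0 and 7.31% below. In type 17 T-like cells the shares were 4.63% and 8.26%. For Ikzf3 the log2 ratio (FMD over ad libitum) was 0.95 in Penk-led and 0.27 in Il10-led regulatory T-like cells, 0.63 in interferon B-like cells and 0.18 in both follicular and activated B-like cells, against −0.34 in type 17 T-like cells. For Ikzf1 it was 0.14 in follicular B-like and −0.38 in type 17 T-like cells. For Ikzf2 it was 1.47 in follicular B-like cells, from 30 FMD and 11 ad libitum UMIs, of which 1 FMD cell held 9.

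Ikzf2 was lower in FMD cells of 4 other classes, with −0.64 in Il10-led regulatory T-like, −1.25 in naive CD8 T-like, −1.54 in effector CD8 T-like and −3.41 in germinal centre B-like cells. The last value rests on 4 FMD and 29 ad libitum UMIs, 19 of them in 1 ad libitum cell. In Il10-led and effector CD8 T-like cells the shares of cells with an Ikzf2 UMI at equal depth had overlapping intervals. No group had the 4 samples that a check for outlying samples needs.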

How the results depend on the processing

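No paired analysis was possible because each diet had 1 library and the groups share only replicate number 1. The diet ratio of Foxp3 in regulatory T-like cells stayed between −0.08 and 0.11 under 11 alternatives, and the log2 ratio of the share of regulatory T-like cells between 0.51 and 0.72 under 6. With both regulatory clusters weighted equally, an alternative chosen after seeing the data, Ikzf2 turned to 0.01, Ikzf3 was 0.47 and Ikzf4 −0.69. Thinned to 2000 UMIs, Ikzf1 was −0.35, Ikzf2 −0.52, Ikzf3 0.19 and Ikzf5 −0.97. As a mean of CPM per cell, Ikzf2 was −0.49 and Ikzf4 −0.78. With at least 100 UMIs per gene, 29 of 4455 genes were 2-fold apart, against 327 of 8252 with at least 20. Scaling to all UMIs, the mitochondrial limit of 10%, no doublet removal, Leiden resolutions 0.5 and 2, clustering with the 6 genes, marker scores and leaving out the highest cell moved none of the 6 ratios by more than their counting error. Thinned to 1000 UMIs, fewer cells held each gene, as for Foxp3 (39.6% of FMD and 36.7% of ad libitum regulatory T-like cells). The causes of the shifts in the diet ratios were not tested. Genes with few UMIs, above all Ikzf4 and Ikzf5, have wide intervals at this depth, and mice cannot be told apart within a pool.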

Other observations

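At Leiden resolution 2 a further regulatory T-like cluster appeared, led by Lrrc32 and Izumo1r, with 41 FMD and 59 ad libitum cells. Foxp3 was at 366 FMD and 270.3 ad libitum CPM in it, below the Il10-led (489 and 502 CPM) and Penk-led clusters (618 and 608 CPM) at that resolution. Ikzf2 stood between theirs at 993 and 1139 CPM, and Ikzf4 was at 55.9 and 117 CPM. A cluster led by the same genes also appeared with the mitochondrial limit at 10% and without doublet removal. In the Penk-led cells that remained, Ikzf2 was at 2169 FMD and 2168 ad libitum CPM with the limit at 10%.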
